A study of Danio rerio with 2 samples.

Results

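Transcripts of 40 genes of DNA replication and cell division were followed in single cells of zebrafish jaw and face cartilage, in a library from nkx3.2 mutants and a library from wild-type (WT) fish. The 40 genes were chosen by name, 20 that act mainly around S phase and 20 that act mainly in mitosis, from the 35117 genes listed in both libraries. All 40 names were found. rrm2 and ube2c each stood under 2 gene identifiers, so the 40 names cover 42 entries. The mutant fish were nkx3.2 el802/el802 and 22 days post fertilization. The WT fish were 21 days post fertilization, although the extraction text gives the younger age for both. Both groups carried the transgenes Tg(fli1a:EGFP)y1 and Tg(sox10:DsRed)el10, and live cells positive for both reporters were sorted before capture on the 10x Genomics 3′ v2 chemistry. Each genotype was therefore 1 library of sorted, pooled cells, and how many fish went into each is not given in the labels. nkx3.2 encodes a homeodomain transcription factor needed for the jaw joint, and the study asked how cartilage cells differ without it.

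A cell that prepares to divide first loads the MCM helicase onto its replication origins with the help of Cdc6. In S phase the helicase unwinds DNA, the clamp PCNA holds the polymerases on it, RPA coats the single strands, and ribonucleotide reductase and thymidylate synthase supply the nucleotides. Entry into mitosis is driven by Cdk1 with its cyclins A and B, by Polo-like kinase 1 and by the Aurora kinases. Exit follows when Cdc20 and the ubiquitin enzyme Ube2c let the anaphase-promoting complex destroy the cyclins. Growing cartilage is lengthened by dividing chondrocytes and by cells added from the perichondrium, while hypertrophic chondrocytes have left the cycle.

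There were 16349558 unique molecular identifiers (UMIs, counts of distinct transcripts) on 2005 barcodes in the mutant library and 13927936 on 2057 barcodes in WT. The median barcode carried 7005 UMIs in the mutant library and 5781 in WT. After 9 mutant and 3 WT doublet calls and 3 WT cells rich in globin were set apart, 1996 mutant and 2051 WT cells were analysed. The libraries shared 4 barcodes. Ribosomal protein genes made up a median of 49.8% of a cell's UMIs in the mutant library and 44.6% in WT. Cartilage identity held in both: 9 of 10 listed cartilage markers were found, with a summed level of 25583 CPM (UMIs per 1000000 UMIs of the cells in question) in the mutant library and 39376 CPM in WT. Leukocyte markers summed to 0.554 and 1.44 CPM and endothelial markers to 0.431 and 1.15 CPM in the mutant and WT libraries. Epithelial markers summed to 166 CPM in the mutant library and 234 CPM in WT. nkx3.2 itself stood at 41.5 CPM (38.4 to 44.7) in the mutant library and 45.6 CPM (42.1 to 49.3) in WT. The position of the el802 lesion is not in the labels and the chemistry reads transcript 3′ ends, so this level does not check the genotype. With 1 library per genotype no test was possible, and genotype, age and library cannot be told apart. Values in brackets are 95% intervals of counting error only, and differences between fish, sorts or libraries lie outside them. Intervals of UMI levels and their ratios count each UMI as independent, so they also leave out the spread between cells. They are too narrow where few cells hold much of a sum.

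Most of the genes were seen. dut, which encodes dUTPase, and bub1, a checkpoint kinase, had 0 UMIs in both libraries. Of the 42 entries, 19 S-phase and 17 mitotic entries reached 20 UMIs over both libraries. The others below that minimum were 1 entry each of rrm2 and ube2c, ccnb2 with 4 mutant and 2 WT UMIs, and cenpf with 16 mutant and 3 WT UMIs. Within each library the genes of a set stood together in the same cells. pcna (ENSDARG00000054155) was 24.5-fold higher in mutant cells with 5 or more UMIs of the other S-phase genes than in mutant cells with 0, and 24.98-fold higher in the same comparison in WT. For mcm2 these folds were 44.0 in the mutant library and 38.02 in WT, and for rrm2 89.1 and 50.6. fen1, the flap endonuclease that trims Okazaki fragments and also repairs DNA in resting cells, followed the set least, at 3.21-fold and 4.30-fold. Among mitotic genes bub3, a checkpoint protein that also works outside mitosis, followed the set least, at 7.15-fold and 7.13-fold. The 4-fold mark was passed in both libraries by 18 S-phase and 17 mitotic entries among those over the minimum. UMI numbers under 3 were set to 3 for this count. A pass in WT was thus near certain for sparse mitotic entries: tpx2 passed on 1 UMI in 15 WT cells with 5 or more of the others. By the same rule bub1, with 0 UMIs, would reach 19.7-fold. The mitotic count therefore says little about WT.

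The S-phase set as a whole was lower in the mutant library. Its genes held 4332 UMIs in mutant cells and 5032 in WT cells, a summed level of 267 CPM (259 to 275) against 363 CPM (353 to 373). The mutant over WT ratio was 0.736 (0.706 to 0.767). Of 19 entries, 18 were lower in the mutant library, where 58.1% of all 11522 genes with at least 20 UMIs were lower. Few were lower by much: 1 of 19 was 2-fold or more lower, against 8.51% of all genes, and 0 were 2-fold or more higher, against 5.45%. The median log2 ratio over the set was -0.42, against -0.13 over all genes. Scaling by TMM raised every log2 ratio by 0.14 and median-of-ratios scaling by 0.21. Either left 17 of 19 entries lower, because cdca7a, a chromatin partner of the remodeller Hells, then lay above 1.

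The clamp gene pcna alone gave 31.3% of the set's UMIs in the mutant library and 32.1% in WT. It had 1356 UMIs in mutant cells and 1613 in WT cells, 83.5 CPM (79.1 to 88.1) against 116 CPM (111 to 122), a ratio of 0.719 (0.668 to 0.773). Without pcna the ratio of the set was 0.744 (0.708 to 0.782), so the lower level did not rest on that gene. The ratios of the 6 helicase subunits all lay below 1. mcm6 was lowest of them, with 105 mutant and 177 WT UMIs and a ratio of 0.507 (0.394 to 0.649). mcm2, mcm4, mcm5 and mcm7 lay between 0.676 and 0.781, each with an interval below 1. mcm3, with 113 mutant and 116 WT UMIs, had a ratio of 0.833 and an interval that held 1 (0.637 to 1.09). The interval of mcm6 overlapped those of the other subunits except mcm7 (0.661 to 0.923), so most differences in size between subunits were not separated.

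Genes that act with the helicase, or load it, split. gins2, a subunit of the GINS complex that completes the active helicase, had 70 mutant and 103 WT UMIs, a ratio of 0.581 (0.423 to 0.795). cdc6, the loader, was by CPM the only S-phase entry higher in the mutant library, with 49 mutant and 26 WT UMIs and a ratio of 1.61 whose interval held 1 (0.982 to 2.70). ccne2, a cyclin E that starts S phase with Cdk2, had 9 mutant and 18 WT UMIs and a ratio of 0.427 (0.169 to 1.002). It was the only entry past 2-fold, on few counts.

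The genes of nucleotide supply, single-strand binding and strand joining were lower to a like degree. rrm1, the large subunit of ribonucleotide reductase, had a ratio of 0.653 (0.483 to 0.881), and the main entry of rrm2, the small subunit, 0.690 (0.556 to 0.855). tyms, thymidylate synthase, had 127 mutant and 145 WT UMIs, a ratio of 0.749 (0.585 to 0.957). The RPA subunits rpa2 and rpa3 lay at 0.713 and 0.770. The PCNA-binding factor kiaa0101 had a ratio of 0.773 (0.644 to 0.929). fen1 and the ligase lig1 lay at 0.804 (0.708 to 0.913) and 0.681 (0.517 to 0.895). cdca7a was nearest to equal, with 116 mutant and 102 WT UMIs and a ratio of 0.972 (0.739 to 1.28).

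The mitotic set ran the other way. It held 1544 UMIs in mutant cells and 562 in WT cells, 95.1 CPM (90.4 to 99.97) against 40.5 CPM (37.2 to 44.0), a ratio of 2.35 (2.13 to 2.59). Of 17 entries, 12 were 2-fold or more higher in the mutant library, against 5.45% of all genes, and 0 were 2-fold or more lower. The median log2 ratio was 1.59. The minimum of 20 UMIs sums both libraries, so entries with few WT UMIs reached it through the mutant library. Among them were ccnb1 with 37 mutant and 6 WT UMIs and tpx2 with 18 and 6. The count of 12 is thus fixed in part by the filter. At a minimum of 100 UMIs 3 of 6 entries were 2-fold or more higher. In all, 16 of 17 entries were higher, and 14 of 17 when CPM was averaged over cells, where aurka lay at 0.997 and mki67 at 0.868. bub3 was lower under both, with 75 mutant and 88 WT UMIs and a ratio of 0.729 (0.528 to 1.003).

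plk1, cdc20 and cdk1 had the highest ratios. plk1 (ENSDARG00000058471), Polo-like kinase 1, had 85 UMIs in mutant cells and 9 in WT cells, a ratio of 8.07 (4.06 to 18.3). cdc20 (ENSDARG00000100741), the activator of the anaphase-promoting complex, had 85 mutant and 10 WT UMIs, a ratio of 7.27 (3.76 to 15.7). cdk1 (ENSDARG00000087554) had 87 mutant and 11 WT UMIs, a ratio of 6.76 (3.60 to 14.0). Its partners ccnb1 and ccna2 had 37 and 88 UMIs in mutant cells, against 6 and 25 in WT cells, with ratios of 5.27 (2.21 to 15.3) and 3.01 (1.91 to 4.90). Each of these regulators of mitotic entry and exit had 25 UMIs or fewer in the whole WT library.

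Genes of the spindle and the chromosomes were higher as well. nusap1, a microtubule-binding protein of the spindle, had 49 mutant and 7 WT UMIs, a ratio of 5.98 (2.70 to 15.7). top2a, the topoisomerase that untangles sister chromatids, had 41 mutant and 8 WT UMIs, a ratio of 4.38 (2.03 to 10.8). kpna2, an importin, and birc5a, survivin of the chromosomal passenger complex, lay at 3.62 (2.23 to 6.14) and 3.42 (1.79 to 7.07). ube2c, with 425 mutant and 138 WT UMIs, gave the most counts and a ratio of 2.63 (2.17 to 3.21). Without it the ratio of the set was 2.26 (2.02 to 2.53). The Cdk-binding proteins cks2 and cks1b lay at 1.98 (1.41 to 2.80) and 1.32 (1.01 to 1.74). mki67, the Ki-67 antigen, had 51 mutant and 32 WT UMIs, a ratio of 1.36 whose interval held 1 (0.859 to 2.19). aurkb and aurka lay at 1.55 (1.00001 to 2.45) and 2.56 (1.17 to 6.20). tpx2, the activator of Aurora A, lay at 2.56 on 18 mutant and 6 WT UMIs, with an interval that held 1 (0.975 to 7.89).

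**Figure D1:**
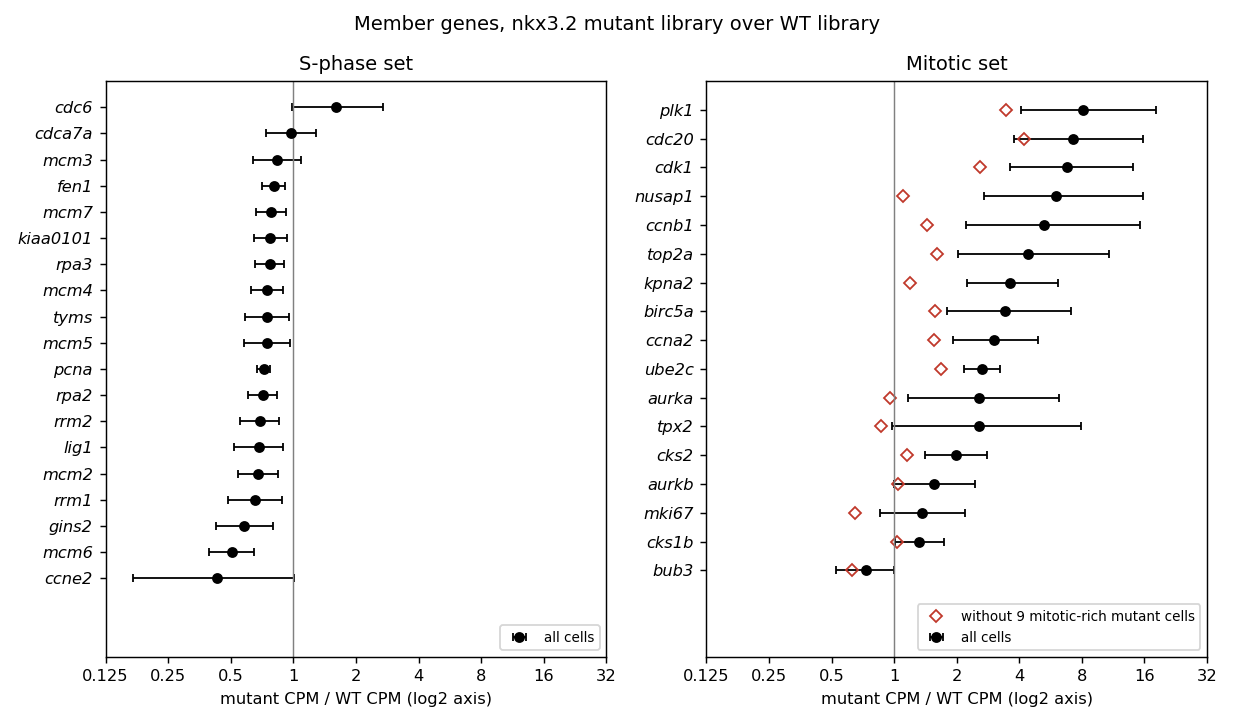
Mutant over WT ratio of CPM for each entry with at least 20 UMIs, on a log2 axis, in the S-phase set (left) and the mitotic set (right); bars are 95% counting intervals and open diamonds in the mitotic panel leave out 9 mutant cells with 40 or more mitotic UMIs. S-phase entries sit mostly between 0.507 and 0.972, whereas mitotic entries reach 8.07. Mitotic entries lie lower without the 9 cells, and mki67 and bub3 then stand at 0.646 and 0.626.

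Much of the mitotic difference lay in very few cells. In the mutant library 9 cells held 43 to 171 mitotic UMIs each, 700 of the 1544 in all (45.3%), and the next cell held 22. In WT the highest cell held 24, and 0 of 2051 cells reached 40, which allows a share of up to 0.180%. The mark is a raw count and so depends on depth. That WT cell had 3259 UMIs in all, which puts its mitotic level at 7364 CPM. The 9 mutant cells lay between 4052 and 9370 CPM. The mark of 40 UMIs was set after these values were seen, and it removes cells from the mutant library only. Without the 9 cells the mitotic set stood at 52.4 CPM in the mutant library, a ratio of 1.29 (1.16 to 1.44). Then 3 of 13 entries that still reached 20 UMIs were 2-fold or more higher, against 5.18% of all genes. They were plk1 at 3.45 (1.63 to 8.13), cdk1 at 2.58 (1.27 to 5.67) and cdc20 at 4.22 (2.11 to 9.35). Each of them reached the minimum through its mutant UMIs. At any size 11 of 13 were higher, against 41.4% of all genes, and the median log2 ratio was 0.63. nusap1, whose UMIs lay in 17 mutant cells, came to 1.11 (0.367 to 3.50), and mki67 to 0.646 (0.364 to 1.13). When the 1% of cells with most mitotic UMIs was left out of each library, the ratio of the set was 1.52.

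Each of the 9 cells, picked for their mitotic UMIs, showed from 12 to 19 of the mitotic entries. The cell with 171 mitotic UMIs showed 19 of the entries, among them 33 UMIs of ube2c, 14 of cdk1, 14 of nusap1 and 10 of plk1. The cell with fewest, 43 UMIs, showed 13 entries. cdk1, ccna2, aurkb, mki67, birc5a and ube2c were seen in all 9 cells. They held 1 to 16 S-phase UMIs each, 465 CPM in all against 267 CPM over all mutant cells, and 5 of the 9 held 5 or more. Their depth was above the library's, with a median of 12220 UMIs per cell and a range of 4589 to 24219. By the marker gates described below, 5 were matn1-high cells, 2 were six2a-positive, 1 was epyc-positive and 1 fell in the fibrous collagen gate. Cartilage markers summed to 26812 CPM in them, with a range of 479 to 43734 CPM per cell. Of the cartilage markers found, sox9a had 0 UMIs in these cells. All listed leukocyte, endothelial, erythrocyte, pigment and muscle markers had 0 UMIs there. Epithelial markers had 6 UMIs from 2 of 4 genes, and of the glia and nerve list 1 of 5 genes, sox10, which also drives a sorting reporter, had 27. The highest doublet score was 0.0851, against 0.296 among all mutant cells kept.

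**Figure D2:**
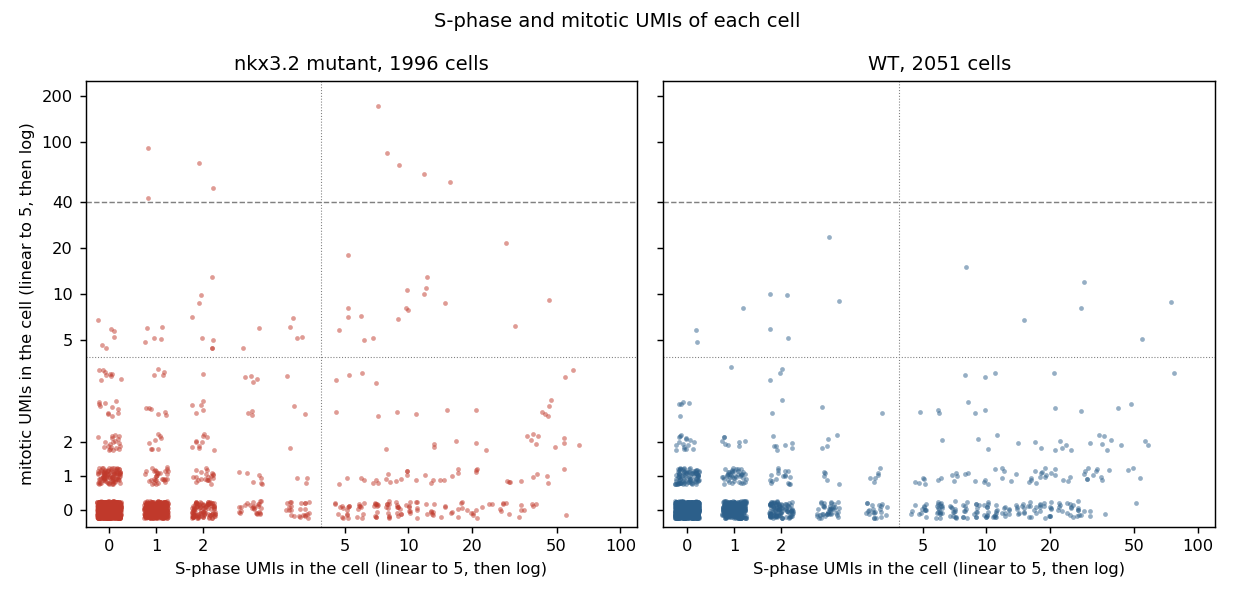
UMIs of the S-phase set (horizontal axis) and the mitotic set (vertical axis) in each cell, mutant library on the left and WT on the right, with small random offsets and both axes linear up to 5 and logarithmic above; dotted lines lie just below 5 UMIs and the dashed line at 40. The 9 cells above the dashed line are all in the mutant library, while cells with 40 or more S-phase UMIs occur in both, 20 in the mutant library and 12 in WT.

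**Figure D3:**
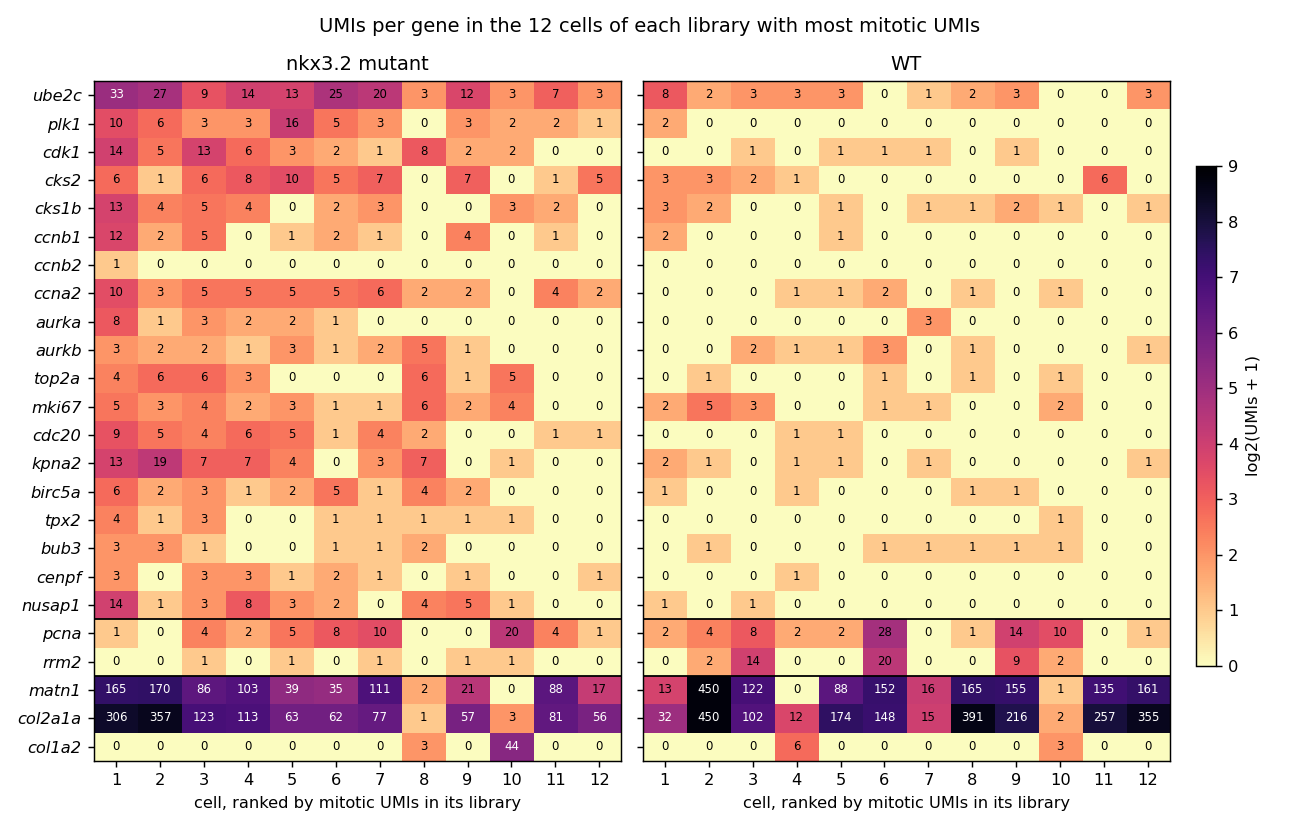
UMIs per gene (numbers, colour as log2 of UMIs + 1) in the 12 cells of each library with most mitotic UMIs, mutant left and WT right, with mitotic genes above, pcna and rrm2 in the middle and matrix genes below. The first 9 mutant cells, with 43 to 171 mitotic UMIs each, show 12 to 19 mitotic entries. The WT cells, with 6 to 24 mitotic UMIs, show at most 9.

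Shares of cells were compared at equal depth. Each cell was thinned to 3000 UMIs, with cell numbers averaged over 50 random draws, and 173 mutant and 254 WT cells with fewer were left out. Cells with 5 or more S-phase UMIs numbered 87 of 1823 in the mutant library (4.77%, 3.84 to 5.85) and 113 of 1797 in WT (6.29%, 5.21 to 7.51). The ratio of these shares was 0.759, with an interval that held 1 (0.567 to 1.01). Without thinning they numbered 199 of 1996 (9.97%) and 243 of 2051 (11.8%). Cells with 5 or more mitotic UMIs were rarer, at 12 of 1823 (0.658%, 0.341 to 1.15) in the mutant library and 3 of 1797 (0.167%, 0.0344 to 0.487) in WT, a ratio of 3.94 (1.06 to 21.8). Without the 9 mitotic-rich cells they were 3 of 1814 in the mutant library and 3 of 1797 in WT, a ratio of 0.991 (0.133 to 7.40). Without thinning and with the 9 cells they were 52 (2.61%) and 15 (0.731%). Of mmp13b-positive cells, 0 of 44 mutant cells, which allows a share of up to 8.04%, and 1 of 90 WT cells passed the S-phase mark after thinning. Without thinning 3 of 49 mutant and 3 of 98 WT cells passed it, at median depths of 5118 and 5934.5 UMIs.

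Among unthinned cells with 5 or more S-phase UMIs the mean was 16.7 S-phase UMIs per cell in both libraries. Their depths differed, with medians of 10147 UMIs in the mutant library and 9084 in WT, and the set stood at 1544 CPM in the mutant cells and 1709 CPM in the WT cells. Those cells held 76.6% (75.3 to 77.9) of S-phase UMIs in the mutant library and 80.7% (79.6 to 81.8) in WT. The upper end differed: 36 mutant and 64 WT cells held 20 to 39 S-phase UMIs, and 20 mutant and 12 WT cells held 40 or more. Few cells passed both marks, 23 mutant and 6 WT cells without thinning. Outside the 9 cells and without thinning, at median depths of 6998.5 and 5778 UMIs over all cells, 43 mutant and 15 WT cells held 5 to 39 mitotic UMIs, 2.15% (1.56 to 2.89) and 0.731% (0.410 to 1.20) of cells. These numbers are at unequal depth, and at equal depth the cell numbers without the 9 cells were those given above.

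Cells were next placed in 12 groups by marker genes alone, and the 10 groups with at least 30 cells in each library were compared. The matn1-high gate (822 mutant and 831 WT cells) takes cells with a high level of matrilin 1, a cartilage matrix protein, and no marker of a prior gate. The fn1b and tgm2l gate (129 and 204 cells) takes cells by the summed level of fibronectin 1b and a transglutaminase, genes used here as perichondrium markers. A cell with only 1 of these genes can pass. With 2 genes the gate is too thin a basis for a cell type name. The fibrous collagen gate (188 and 296 cells) takes matn1-low cells by the summed level of col1a1a, col1a2, col5a1, postnb and mfap2. The other gates used ccl25b with cxcl12a (86 and 80 cells), f13a1b with mgp (155 and 132), six2a (138 and 63), mmp13b (49 and 98), and col10a1a without mmp13b (52 and 97). Where 2 genes are named together, their summed level was used. Cells in no gate were split into matn1-moderate (109 and 70) and matn1-low (201 and 123). The sort and the dissociation also bear on these numbers.

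Replication genes were highest outside the matn1-high cells in both libraries. In the mutant library the S-phase set was highest in the fn1b and tgm2l gate, at 862 CPM (803 to 923), followed by the fibrous collagen gate at 495 CPM (450 to 543). In WT the highest was the ccl25b and cxcl12a gate at 808 CPM (719 to 904), and the fibrous collagen and fn1b and tgm2l gates followed at 594 and 592 CPM, with intervals that overlapped. Levels were low in mmp13b-positive cells, at 102 CPM (70.3 to 143) in the mutant library and 163 CPM (135 to 196) in WT, and in col10a1a-positive cells without mmp13b, at 41.5 CPM (23.7 to 67.4) and 149 CPM (121 to 182). The hypertrophy markers thus went with low replication genes in both genotypes. six2a-positive cells were also low, at 134 and 121 CPM, and so were the matn1-low cells of WT, at 65.2 CPM, against 163 CPM in the mutant library.

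The mitotic set gave another picture, which rested in part on the 9 cells. In the mutant library it stood at 125.3 CPM (108 to 144) in six2a-positive cells, 123 CPM (116 to 131) in matn1-high cells and 122 CPM (100.3 to 147) in the fibrous collagen gate, with overlapping intervals. The epyc gate, not compared between genotypes for its 23 WT cells, stood at 147 CPM (119 to 179) in 51 mutant cells. Without its 1 mitotic-rich cell it stood at 53.5 CPM. The fn1b and tgm2l gate, highest for replication, had 64.6 CPM (49.5 to 83.0) and 0 of the 9 cells. Without those cells the six2a gate stood at 44.2 CPM, matn1-high cells at 67.4 CPM and the fibrous collagen gate at 66.9 CPM. In WT the fibrous collagen gate had 51.4 CPM, matn1-high cells 47.2 CPM and the fn1b and tgm2l gate 42.1 CPM, again overlapping. Of cells with 5 or more mitotic UMIs without thinning, 38 of 52 mutant and 13 of 15 WT cells were in the matn1-high gate, which held 41.2% of mutant and 40.5% of WT cells. The matn1-high cells were deeper than most, with medians of 9649 and 7918 UMIs.

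**Figure D4:**
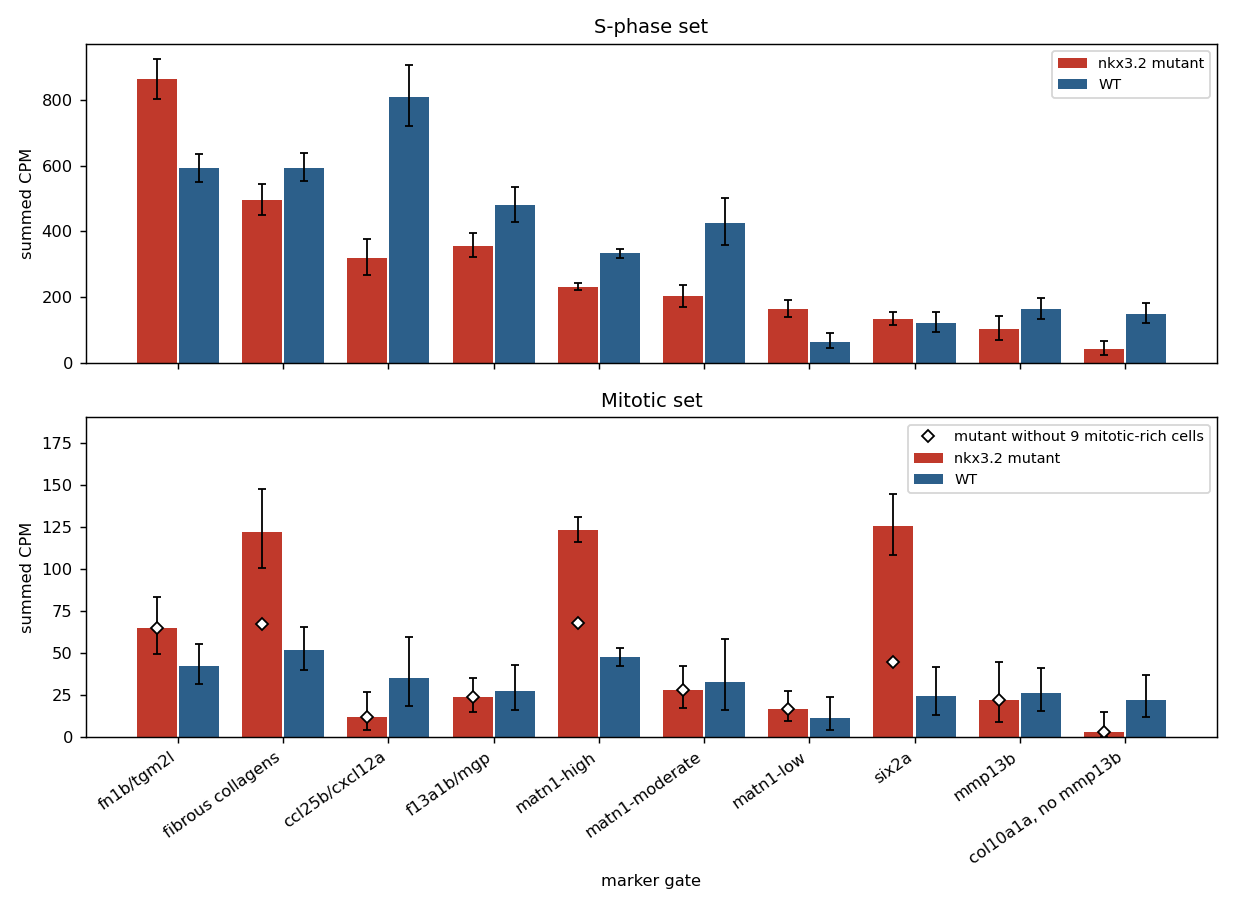
Summed CPM of the S-phase set (top) and the mitotic set (bottom) in 10 marker gates, mutant bars left of WT bars, with 95% counting intervals; diamonds in the lower panel give the mutant level without 9 mitotic-rich cells. The S-phase set is higher in the mutant library in the fn1b and tgm2l gate and lower in the matn1-high gate, and the tall mutant mitotic bars of the fibrous collagen, matn1-high and six2a gates drop once the 9 cells are left out.

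Set against matn1-high cells of the same library, the fn1b and tgm2l gate had 3.71 times (3.41 to 4.03) the S-phase level in the mutant library and 1.77 times (1.63 to 1.93) in WT. In the mutant library 17 of 18 S-phase entries were 2-fold or more higher there, against 13% of all genes. In WT 6 of 17 were, also against 13%. The mitotic set gave 0.525 times (0.399 to 0.680) in the mutant library and 0.891 times (0.656 to 1.19) in WT. Without the 5 mitotic-rich matn1-high cells the value of the mutant library was 0.960 times (0.724 to 1.25), on 61 and 548 UMIs. The fibrous collagen gate had 2.13 times (1.92 to 2.37) the S-phase level of matn1-high cells in the mutant library and 1.78 times (1.64 to 1.93) in WT. There 13 of 18 S-phase entries in the mutant library were 2-fold or more higher, against 25.3% of all genes, and 9 of 17 in WT, against 31.6%. Its epithelial markers, mostly keratins, summed to 722 CPM in mutant and 1029 CPM in WT cells, against 38.8 and 54.2 CPM in matn1-high cells. Their part in the result was not tested.

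Between genotypes, the direction of the S-phase set depended on the gate. It was lower in the mutant library with an interval below 1 in 7 of 10 gates, higher with an interval above 1 in 2, and not separated in 1. This tally takes UMIs as independent, and single cells weighed heavily in several of the 7 gates. The highest WT cell gave 40.6% of the WT sum in the col10a1a gate, 24.1% in f13a1b and mgp and 17.5% in mmp13b. The highest mutant cell gave 32.4% of the mutant sum in the ccl25b and cxcl12a gate and 29.9% in matn1-moderate cells. The matn1-high gate, the largest, had 1907 S-phase UMIs in mutant and 2381 in WT cells, 232 CPM (222 to 243) against 334 CPM (320 to 347), a ratio of 0.696 (0.655 to 0.740). Of 18 entries there, 16 were lower, against 50.9% of all genes in that gate, and 4 were 2-fold or more lower, against 7.01%. These were gins2 at 0.328 (0.176 to 0.585), mcm6 at 0.393 (0.261 to 0.583), lig1 at 0.464 (0.292 to 0.723) and rrm2 at 0.474 (0.340 to 0.655). mcm3 and cdc6 lay above 1, at 1.21 and 1.34, with intervals that held 1. In the fibrous collagen gate the set had a ratio of 0.834 (0.740 to 0.938). There 10 of 17 entries were lower, against 65.9% of all genes, and 2 of 17 were 2-fold or more lower, against 8.57%, so the members' counts were near the background.

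The matn1-high cells of the mutant library held less matn1, with a median of 79.2 UMIs per 10000 UMIs, against 119 in WT, so the gate was divided by matn1 level. From 30 to 60 UMIs per 10000 the S-phase set stood at 180 CPM in 243 mutant cells and 349 CPM in 116 WT cells, a ratio of 0.517 (0.448 to 0.597). From 60 to 120 it stood at 276 CPM in 404 mutant cells and 304 CPM in 303 WT cells, a ratio of 0.906 (0.829 to 0.990). At 120 or more it stood at 199 CPM in 175 mutant cells and 354 CPM in 412 WT cells, a ratio of 0.561 (0.489 to 0.641). The direction was the same in all 3 ranges, and the size was not. The mitotic set stood at 129 CPM in mutant and 84.5 CPM in WT cells from 30 to 60, a ratio of 1.53 (1.20 to 1.98), or 0.971 (0.747 to 1.27) without 2 of the 9 cells. In the middle range it was 146 CPM in mutant and 41.9 CPM in WT cells, a ratio of 3.50 (2.87 to 4.29), or 1.62 (1.30 to 2.02) without 3 of the 9 cells. At 120 or more it was 37.8 CPM in mutant and 41.3 CPM in WT cells, with 0 of the 9 cells there. Without the 9 cells the interval lay above 1 in the middle range and held 1 in the others.

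Between genotypes the mitotic set was higher in the mutant library with an interval above 1 in 4 of 10 gates, lower in 2 and not separated in 4. It was higher in 2 of them without the 9 cells. Over the whole matn1-high gate the mitotic set stood at 123 CPM in mutant and 47.2 CPM in WT cells, a ratio of 2.61 (2.30 to 2.96). Of 16 entries, 12 were 2-fold or more higher, against 7.73% of all genes in that gate. cdc20 had 62 mutant and 4 WT UMIs there, a ratio of 13.5 (5.005 to 51.0), and plk1 50 and 5, a ratio of 8.69 (3.49 to 27.9). tpx2 had 12 UMIs in mutant cells and 0 in WT cells. Without the 5 mitotic-rich cells of this gate the ratio of the set was 1.43 (1.24 to 1.64).

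Replication genes were higher in the mutant library in the fn1b and tgm2l gate, and in the matn1-low cells of no other gate. The matn1-low cells gave a ratio of 2.51 (1.74 to 3.71) on 157 mutant and 36 WT UMIs, with 28.0% of the mutant sum in 1 cell. The fn1b and tgm2l gate held 813 S-phase UMIs in mutant and 760 in WT cells, 862 CPM against 592 CPM, a ratio of 1.46 (1.32 to 1.61). Of 17 entries, 16 were higher in the mutant library, against 47% of all genes in that gate, and 4 were 2-fold or more higher, against 6.24%. mcm2 had 35 mutant and 17 WT UMIs, a ratio of 2.80 (1.53 to 5.33), and mcm5 29 and 16, a ratio of 2.47 (1.30 to 4.86). mcm4 had 59 and 38 UMIs, a ratio of 2.11 (1.38 to 3.26), and cdca7a 22 and 6, a ratio of 4.99 (1.96 to 15.04). cdc6 had 15 mutant and 2 WT UMIs, a ratio of 10.2 (2.37 to 91.96) on too few counts for the minimum. The exception was rrm1, with 10 mutant and 32 WT UMIs, a ratio of 0.425 (0.186 to 0.886), 2-fold or more lower as were 10.4% of all genes there. The set did not rest on a single cell, since the highest cell gave 6.77% of its UMIs in mutant and 6.97% in WT cells. Its size did depend on few cells and on the gate. Without the 1% of each library's cells with most S-phase UMIs the ratio was 1.23. In clusters built without cell cycle genes it was 1.18, and both values lay below the interval. After thinning, 22 of 121 mutant cells (18.2%, 11.8 to 26.2) and 22 of 188 WT cells (11.7%, 7.48 to 17.2) reached 5 S-phase UMIs, with overlapping intervals. The gate took 6.46% of mutant and 9.95% of WT cells, at median depths of 7127 and 5479.5 UMIs. The mitotic set there stood at 64.6 CPM in mutant and 42.1 CPM in WT cells, a ratio of 1.54 (1.05 to 2.26), with 0 of the 9 cells.

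In the ccl25b and cxcl12a gate the S-phase set was lower, at 320 CPM (269 to 378) in mutant and 808 CPM (719 to 904) in WT cells, a ratio of 0.396 (0.322 to 0.486). It was lower as well in col10a1a-positive cells without mmp13b, at 0.279 (0.153 to 0.476), on 16 mutant and 96 WT UMIs. There 1 WT cell held 39 UMIs, 40.6% of the WT sum, so the size of that ratio is uncertain beyond its interval. After thinning, 0 of 49 mutant cells, which allows a share of up to 7.25%, and 2 of 91 WT cells reached 5 S-phase UMIs. In the ccl25b and cxcl12a gate mcm4 had 3 mutant and 20 WT UMIs, a ratio of 0.130 (0.0246 to 0.437), and kiaa0101 7 and 27, a ratio of 0.224 (0.0823 to 0.527). After thinning, 4 of 72 mutant and 11 of 64 WT cells reached 5 S-phase UMIs. A cell with 45 S-phase UMIs gave 32.4% of the mutant sum. Epithelial markers summed to 230 CPM in mutant and 810 CPM in WT cells of this gate, and their part in the result was not tested. In the f13a1b and mgp gate the S-phase set was at 357 CPM in mutant and 479 CPM in WT cells, a ratio of 0.745 (0.639 to 0.868). Here 1 WT cell held 77 of 320 S-phase UMIs, 24.1% of the WT sum, and 1 mutant cell held 55 of 367. This ratio is therefore uncertain beyond its interval. At equal depth 9 of 143 mutant cells (2.92% to 11.6%) and 8 of 116 WT cells (3.02% to 13.1%) reached 5 S-phase UMIs. These shares did not separate the genotypes. In the six2a gate the S-phase set did not separate, at a ratio of 1.11 (0.837 to 1.49). The mitotic set there gave 5.18 (2.96 to 9.90), or 1.82 (0.998 to 3.60) without 2 of the 9 cells.

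Genes outside the 40 that were most like the S-phase set were ranked by their fold in cells with 5 or more S-phase UMIs over cells with 0, taking the lower of the folds of the 2 libraries, among 6808 genes with at least 100 UMIs. First came the chromatin assembly factor subunits chaf1b and chaf1a, at folds of 59.0 and 54.1. The remodeller gene hells and the origin recognition gene orc6 followed, at 50.6 and 50.5. orc4, stmn1a, dnph1, dscc1, pola1 and CABZ01066926.1 completed the 10. Between genotypes chaf1a had a ratio of 0.649 (0.506 to 0.831), orc6 0.527 (0.355 to 0.774) and pola1, the catalytic subunit of polymerase alpha, 0.528 (0.351 to 0.787). orc4, of the same origin recognition complex, lay at 0.642 (0.512 to 0.805). The other 6 lay between 0.733 and 0.989, each with an interval that held 1. For the mitotic set the first were mad2l1 of the spindle checkpoint at 33.4-fold, cdca8, which encodes borealin, at 31.3-fold, and si:ch211-69g19.2 at 20.01-fold. pane1, stmn1a, cdkn3, hmgn2, tp53inp2, hmgb2b and arpp19b made up the rest. The WT folds of the mitotic ranking rest on 15 cells. cdkn3 had 0 UMIs in those cells and 22 in WT cells with 0 mitotic UMIs. Its WT fold of 10.2 came only from setting that 0 to 3, so WT does not show it to be like the set.

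Wider lists of the pathway were counted without the 40 genes. Of 31 further replication genes, 0 were 2-fold or more higher in the mutant library and 2 lower, against 5.45% and 8.51% of all genes. They were mcm10 at 0.438 (0.246 to 0.758) and gmnn, which encodes the licensing inhibitor geminin, at 0.443 (0.215 to 0.875). At any size 21 of 31 were lower, against 58.1% of all genes, so the counts of this list were near the background. Its median log2 ratio was -0.25. The most abundant of them, rfc5, prim2, rfc3 and rpa1, lay at 1.05, 1.14, 1.005 and 0.732. Of 26 further mitosis genes, 11 were 2-fold or more higher and 0 lower, against 5.45% and 8.51% of all genes, with a median log2 ratio of 0.67. kif11 and aspm are named here after their values were seen. kif11, the motor that pushes spindle poles apart, had 74 mutant and 7 WT UMIs, a ratio of 9.04 (4.17 to 23.3). aspm, a spindle-pole protein, had 56 and 2 UMIs, a ratio of 23.9 (6.32 to 202). Of these, 52 UMIs of kif11 and 47 of aspm lay in the 9 cells. Both genes reached the minimum of 20 UMIs through the mutant library, as did other sparse genes of the list such as cenpe. The count of 11 is thus fixed in part by the filter. Without the 9 cells 4 of 20 further mitosis genes were 2-fold or more higher and 1 lower, against 5.18% and 8.67% of all genes. Then 9 of 20 lay below WT, and their median log2 ratio was 0.16, against -0.13 over all genes. The most abundant genes of that list were the chromatin proteins hmgb2a and hmgb2b, which stood at 1.05 and 0.726, followed by lbr and cdc25b at 1.49 and 0.672.

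Genes that admit cells to the cycle, and genes that restrain it, were looked at beside these. Of 9 G1 entry genes, 0 passed 2-fold in either direction, and their median log2 ratio was -0.02. The most abundant, mych, ccnd2a, myca and ccnd1, lay between 0.882 and 1.14. Of 16 genes on the brake list, 2 were 2-fold or more higher in the mutant library and 3 lower, against 5.45% and 8.51% of all genes. Their median log2 ratio was -0.34. The lower ones were cdkn1a at 0.489 (0.408 to 0.585), cdkn1ca at 0.354 (0.246 to 0.504) and cdkn1cb at 0.360 (0.251 to 0.508). The higher ones were cdkn1d, another cdkn1 gene, and mdm2, the ligase for p53. cdkn1d had 203 mutant and 63 WT UMIs, a ratio of 2.75 (2.07 to 3.71), and mdm2 lay at 2.13 (1.66 to 2.76). mdm2 was on the list although its product acts against p53, so it is not itself a brake. The most abundant brakes, ccng1, btg1, btg2 and cdkn1bb, lay at 0.790, 0.823, 0.896 and 0.657.

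**Figure D5:**
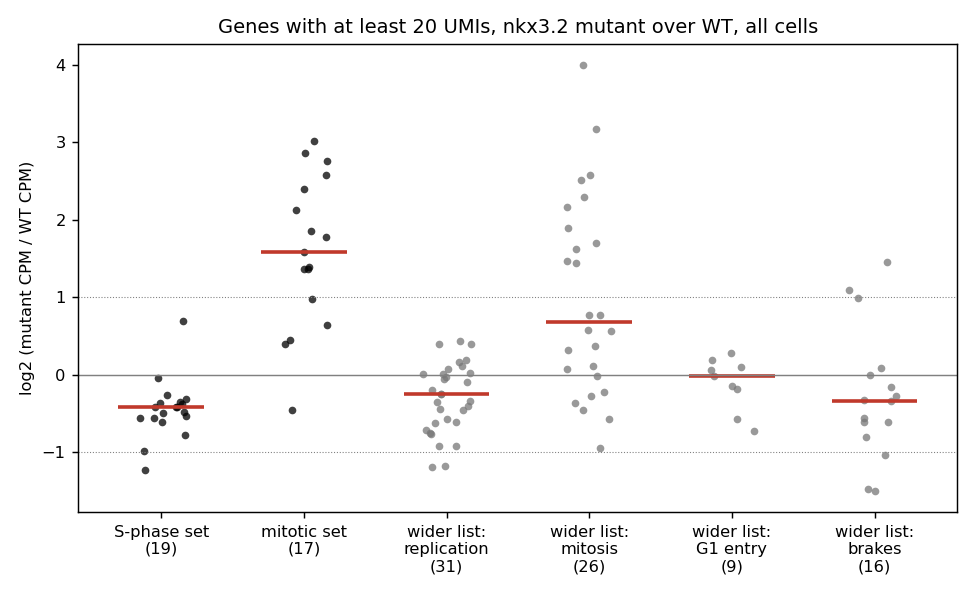
Log2 of mutant CPM over WT CPM for each gene with at least 20 UMIs (points) in the S-phase and mitotic sets and 4 wider lists without the 40 genes, with the number of genes in brackets and medians as red lines; dotted lines mark 2-fold. The mitotic set and the wider mitosis list lie above 0 at medians of 1.59 and 0.67, and the S-phase set and the wider replication list below 0 at -0.42 and -0.25.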

How the data were processed

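The files were single-cell UMI count matrices that the authors deposited, made with Cell Ranger per the submitters' processing notes; its version and the genome build are not given in the sources used here. The deposited counts were used as whole numbers, unnormalized. Doublets were called with Scrublet in Scanpy 1.11.5 and left out (9 mutant and 3 WT); so small a share leaves doublets of like cells in. Cells with over 5% globin UMIs (3 WT) were also left out.

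A level is the UMIs of a gene or set over all UMIs of the cells in a library or gate, as CPM. Brackets hold 95% intervals for counting error only. They are Poisson for levels, Clopper-Pearson for shares of cells and conditional binomial for ratios, all exact for independent counts. A share of 0 is given with its Clopper-Pearson upper limit. Intervals of UMI levels and their ratios leave out the spread between cells. UMIs mark molecules, so PCR copies were collapsed. Counts of 0 to 2 were replaced by 3 before logarithms were taken, in the ranking of genes most like each set and for the 4-fold mark. Genes with at least 20 UMIs over the libraries compared entered counts and medians. A sparse gene could thus enter only through the library or gate where it was higher. No test was run, since each genotype was 1 library.

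Gates were applied in the order osteoblast genes, mmp13b, col10a1a, ccl25b with cxcl12a, fibrous collagens, f13a1b with mgp, fn1b with tgm2l, six2a, matn1-high (30 UMIs or more per 10000), epyc, matn1-low (under 10) and matn1-moderate. A gate of several genes used their summed level, so the genes need not occur in the same cell. Gate thresholds were set from the gating genes after the distributions of these genes were seen. The mark of 40 mitotic UMIs and the genotype comparison within the fn1b and tgm2l gate were chosen after the members' values were seen. Thinned cell numbers are rounded means of 50 seeded draws, adopted after single draws were seen to differ. The osteoblast and epyc gates held under 30 cells in a library and were not compared. The members, lists and marks were chosen with earlier results of these data known. All 40 members were named, with the 10 genes most like each set and the 4 most abundant genes of each wider list; where 5 or fewer of a list passed 2-fold, these are named too, after their values were seen.

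Alternatives used edgeR 4.0.16 (TMM) and DESeq2 1.42.0 (median of ratios) on the summed counts, other totals, thinning, thresholds and filters, and Leiden clusters (leidenalg 0.10.2) built from 2000 variable genes, 30 components and 20 neighbours at resolution 1 without cell cycle genes. Ratios, intervals and thinning were tested on simulated data with known answers. The simulated gene counts were independent draws, as the intervals assume, so this check does not cover UMIs that gather in few cells. The remaining work was done in Python 3.11.15 with scipy 1.17.1, numpy 2.4.6 and pandas 2.3.3.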

Additional observations from a re-analysis of the deposited data

Results flagged for a closer look

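In 4 instances a gate differed from the matn1-high gate in direction between genotypes, with both counting intervals off 1; none of these differences was tested, since each genotype was 1 library. For the S-phase set, where matn1-high cells gave a mutant over WT ratio of 0.696, the fn1b and tgm2l gate gave 1.46 (1.32 to 1.61) and the matn1-low cells in no other gate gave 2.51 (1.74 to 3.71). Among those matn1-low cells 1 mutant cell with 44 S-phase UMIs gave 28.0% of the mutant sum, which was 157 UMIs in 201 mutant cells, against 36 UMIs in 123 WT cells. For the mitotic set, where matn1-high cells gave 2.61, the ccl25b and cxcl12a gate gave 0.332 (0.0927 to 0.993) on 5 mutant and 13 WT UMIs. The col10a1a-positive cells without mmp13b gave 0.120 (0.00283 to 0.786) on 1 mutant and 14 WT UMIs.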

How the results depend on the processing

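All values here are log2 ratios of the mutant over the WT library unless said otherwise, and causes were not tested. No paired analysis was possible because each genotype was 1 library. The S-phase set over all cells (-0.44) kept its sign under every alternative run: -0.30 with TMM factors, -0.23 with median-of-ratios factors, -0.30 without mitochondrial and ribosomal protein genes in the total, -0.33 as a mean of per-cell CPM, -0.33 after thinning, -0.50 without the top 1% of cells and -0.36 with gates at equal weight. In matn1-high cells (-0.52) it was -0.39 without mitochondrial and ribosomal protein genes and -0.43 after thinning. In the fn1b and tgm2l gate (0.54) it was 0.30 without the top 1% of cells and 0.24 in clusters built without cell cycle genes. The mitotic set over all cells (1.23) also kept its sign: 1.45 with median-of-ratios factors, 1.37 without mitochondrial and ribosomal protein genes, 0.90 as a mean of per-cell CPM, 1.59 as a median over members, 0.99 after thinning, 0.37 without the 9 mitotic-rich cells, 0.60 without the top 1% of cells and 0.76 with gates at equal weight. In matn1-high cells (1.38) it was 1.03 as a mean of per-cell CPM, 1.77 as a median, 1.11 after thinning, 0.51 without the mitotic-rich cells, 0.97 without the top 1% of cells and 1.56 in the 40% of each library's cells with most matn1. The S-phase share of cells kept its direction in all 8 alternatives and the mitotic share (1.98) in 7, but reversed to -0.014 without the mitotic-rich cells. Mitotic entries 2-fold or more higher numbered 12, but 3 at a minimum of 100 UMIs, where 6 remained, and 3 without the mitotic-rich cells. S-phase entries 2-fold or more lower numbered 1, but 0 at that minimum and 4 at 1.5-fold; higher ones numbered 0, but 1 at 1.5-fold and 1 as a mean of per-cell CPM. In clusters, the fn1b and tgm2l gate over matn1-high cells gave -1.38 for the mitotic set in the mutant library (main value -0.93; -0.060 without the mitotic-rich cells) and 1.101 for the S-phase set in WT (main value 0.83). Of single genes aurka reversed, at -0.0042 as a mean of per-cell CPM, and cdca7a and mki67 crossed 0 within their intervals. Removing the 9 cells, globin cells kept, equal weights, the 40% gate, shares within matn1-high cells and every alternative of the fn1b and tgm2l gate were added after the data were examined. Depth limits the mitotic set most: with 562 WT UMIs over 20 genes, single genes in single gates rest on a handful of counts.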
